A study of Mus musculus with 12 samples.

Results

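Gene expression in transplanted T cell lymphomas driven by the ZMYM2-FGFR1 fusion kinase was compared with that of normal double-positive (DP) thymocytes, the CD4+CD8+ cells whose surface markers the tumours share. The arrays were chosen by their labels: 4 of T lymphoma and 3 of DP thymocytes, so 7 of the 12 mouse arrays of the series, and they were fitted without the other 5. The DP thymocytes were sorted as Thy1+ CD4+CD8+ cells from the thymus of normal Balb/c mice, and each of the 3 samples pooled the thymuses of 3 mice. The lymphomas came from ZMYM2-FGFR1 mice at the third serial transplantation, and their strain and the number of animals behind each sample were not given in the sources used here. Tumours 1 to 3 were taken unsorted, with over 90% GFP+Thy1+DP+ cells, and tumour 4 was sorted for such cells. The labels call all samples biological replicates; whether the tumours share an origin is not given, and p-values measure the spread between these samples. Total RNA was amplified in 2 cycles before hybridisation to Affymetrix mouse genome arrays, and values are given as log2 intensity. Because these are bulk samples, fewer cells of a type and less RNA per cell cannot be told apart.

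FGFR1 fusion kinases are constitutively active and signal without ligand. DP thymocytes are small, mostly resting cells that complete the rearrangement of their T cell receptor, and they survive only if the receptor signals within a narrow range. They are known for high levels of recombinases, coreceptors and calcium signalling genes and for low levels of most cytokine receptors and effector genes.

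The DP arrays resembled each other closely, with Pearson correlations over the genes tested of 0.993 to 0.995. The unsorted lymphomas correlated at 0.928 to 0.933 with each other, the sorted lymphoma at 0.839 to 0.922 with them, and the sorted lymphoma at 0.890 to 0.893 with the DP arrays. Spread was unequal, with a root mean square SD of 0.157 among DP arrays and 0.624 among lymphomas. The beta-actin control probe sets gave 3' over 5' ratios from 2.18 to 2.23 for the DP arrays and from 2.44 to 3.69 for the lymphomas; their part in the results was not tested. All 11 T cell and DP thymocyte markers with a probe set, among them Cd4, Cd8a, Thy1 and Rag1, lay above the filter level (log2 6.70, the median of all values) in every array. Their summed intensity was 132953 to 148183 in DP thymocytes, 58652 to 67370 in the unsorted lymphomas and 85051 in the sorted lymphoma. Of these 11 genes, 7 were called lower in T lymphoma, the 4 named ones included, and 0 higher. That is 63.6%, against 9.38% of all genes tested, and 3 to 9 were called lower in the fits without 1 array. By the measure given below, 5 of the 7 were held in the sorted lymphoma. Cd4 read 13.26, 13.30 and 13.02 in the DP thymocytes, 9.61, 10.75 and 9.88 in the unsorted lymphomas and 11.01 in the sorted lymphoma.

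Marker lists of macrophages, stroma and B cells summed higher in the unsorted tumours than in DP thymocytes. Macrophage markers summed to 1635 to 1740 in DP thymocytes, 28156 to 61685 in the unsorted lymphomas and 3880 in the sorted lymphoma, where Csf1r, C1qa, C1qb, C1qc and Mpeg1 were below every DP array and Ctss, Lyz2, Cd14 and Cd68 above. Lyz2 read 8.58, Cd14 6.55 and Cd68 7.60 there, against at most 8.12, 6.08 and 7.30 in the DP arrays. The stroma and endothelium list summed to 1117 to 1236, 20134 to 39914 and 1139, and the B cell list to 1815 to 1854, 11389 to 18344 and 1093. Most of the B cell sum in each unsorted lymphoma came from the MHC class II genes H2-Aa, H2-Ab1 and Cd74. Cd79b and Ms4a1 read 7.23 and 6.59 in lymphoma 1, 6.52 and 6.02 in lymphoma 2 and 10.93 and 10.74 in lymphoma 3. In the DP thymocytes they read at most 8.45 and 5.78. Cd22 read 7.45, 7.72 and 10.22 in the unsorted lymphomas, against at most 7.05. In the sorted array the stroma and B cell sums were thus within or below the range of DP thymocytes, and the macrophage sum was above it. Most of that excess came from Ctss, which encodes cathepsin S, at 11.27. The sums were smaller for granulocyte (453 to 477, 866 to 3500 and 576), dendritic cell (585 to 650, 837 to 1019 and 572) and erythroid markers (306 to 331, 322 to 824 and 306), but single genes stood out. S100a8 read 5.44, 5.52 and 5.57 in the DP thymocytes, 8.76, 10.35 and 7.88 in the unsorted lymphomas and 6.69 in the sorted lymphoma, a rise of 2.91 ± 0.77 (standard error; limma, Benjamini-Hochberg adjusted p = 0.0426). Its DP arrays and the sorted lymphoma lay under the filter level, so the size of the rise is uncertain. The sorted lymphoma kept 33.7% of the unsorted difference, and the call was lost without any DP array or unsorted lymphoma 1 or 3 (adjusted p up to 0.139). S100a9 and Ngp reached 9.21 and 9.84 in lymphoma 2, and Alas2 9.14 in lymphoma 1.

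The lists of NK and cytotoxic cells (2082 to 2402, 20335 to 70112 and 23565) and of thymic epithelium (676 to 718, 1688 to 6134 and 4761) also summed high in the sorted lymphoma, mostly through 1 gene each. Granzyme A (Gzma) read 10.46, 10.75 and 10.68 in the DP thymocytes, 15.18, 14.18 and 14.70 in the unsorted lymphomas and 14.47 in the sorted lymphoma. Epcam, an epithelial adhesion molecule, read 6.62, 6.30 and 6.86 in the DP thymocytes, 12.42, 10.25 and 12.004 in the unsorted lymphomas and 12.07 in the sorted lymphoma. Both rose (Gzma by 3.999 ± 0.24 and Epcam by 5.10 ± 0.50; limma, Benjamini-Hochberg adjusted p = 1.31e-04 and 0.00105), and no lymphoma overlapped the DP thymocytes, although another Epcam probe set stood at 0.30 without a call. Nkg7, a granule protein of cytotoxic cells, read 7.06, 7.001 and 7.08 in the DP thymocytes, 13.10, 9.81 and 9.39 in the unsorted lymphomas and 8.54 in the sorted lymphoma, all lymphomas above all DP arrays, but did not pass the test (3.16 ± 0.99, adjusted p = 0.0689). Gzmb read 6.41, 5.95 and 6.35 in the DP thymocytes, 14.38, 8.10 and 7.93 in the unsorted lymphomas and 6.72 in the sorted lymphoma, so that lymphoma 1 stood far above the rest, and Prf1 reached 10.48 in that tumour but was below every DP array in the other 3. The NK markers Ncr1, Klrd1 and Eomes and the keratins Krt5 and Krt8 were no higher in the sorted lymphoma than in the DP thymocytes, and Ccl5 lay within their range.

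**Figure D1:**
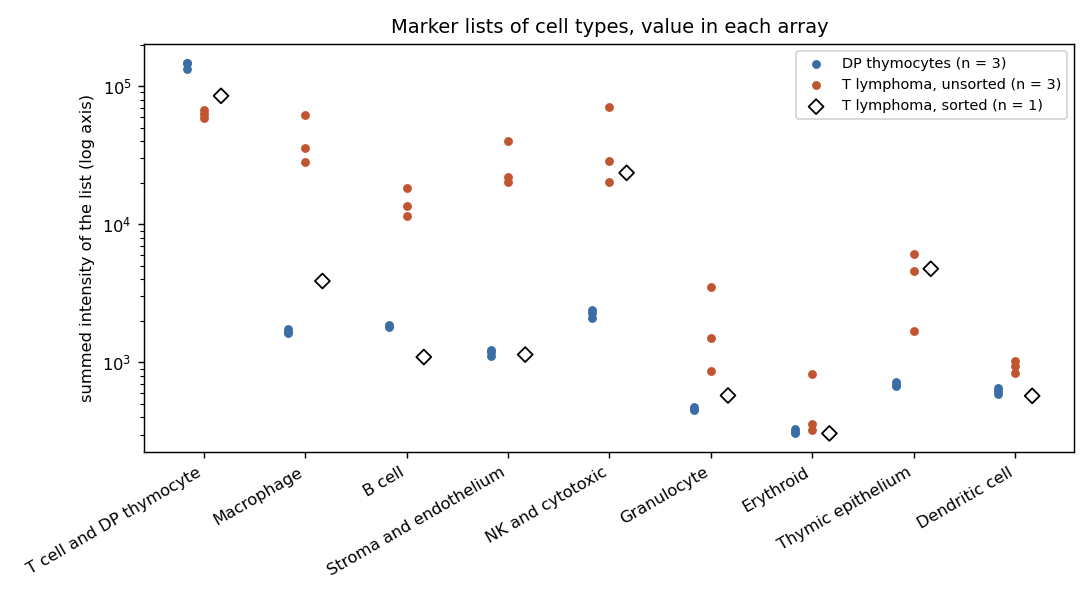
Summed intensity (log axis) of 9 lists of cell type markers in each of the 7 arrays, with 1 point per array. The macrophage, B cell and stroma lists are high in the 3 unsorted lymphomas, while the sorted lymphoma sums to 3880, 1093 and 1139. The B cell list is high mostly through the MHC class II genes H2-Aa, H2-Ab1 and Cd74.

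Of 10961 genes tested, 863 rose in T lymphoma (7.87%) and 1028 fell (9.38%) at a Benjamini-Hochberg adjusted p under 0.05 (limma, n = 4 against 3). By 2-fold or more, 579 rose and 521 fell. Each called gene had lymphomas and DP thymocytes that did not overlap, as had 36.8% of all genes tested. A gene low in 1 group entered the test through the other, so that it had to differ: 687 of the 863 and 857 of the 1028 were above the filter level in all 7 arrays. The counts rested on having 3 DP arrays. Without DP array 1, 2 or 3, 333, 337 and 354 genes rose and 319, 316 and 332 fell, and without lymphoma 2 the genes lower numbered 644. Without the sorted lymphoma, 1685 rose and 2021 fell. In each of the 7 fits without 1 array, 316 of the genes higher and 284 of the genes lower were called.

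Most called changes held in the sorted tumour. A change was counted as held when the sorted array lay beyond all 3 DP arrays in the direction of the call and kept at least 50% of the mean difference of the unsorted lymphomas. By this measure 775 of 863 genes higher (89.8%) and 826 of 1028 genes lower (80.4%) were held. The sorted array entered the fit and shares the DP arrays, so this is a description and no independent test. A change missing from the sorted array widened the spread among the lymphomas and was less likely to be called. The share held was thus in part fixed by the calling. Without the sorted lymphoma in the fit, 13 of 13 macrophage and 10 of 11 stroma markers rose, against 1 and 0 with it. Under 25% of the unsorted difference was left for 8 genes higher and 7 genes lower. With 75% in place of 50% as the share to be kept, the genes held came to 72.3% of those higher and 51.6% of those lower.

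**Figure D2:**
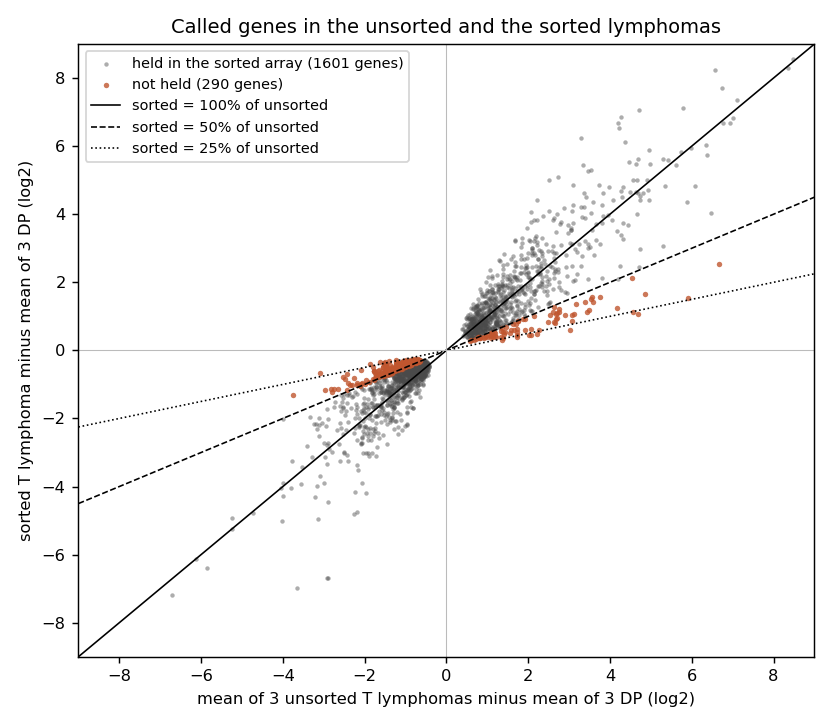
Difference from DP thymocytes (log2) of the sorted lymphoma (vertical) against the mean of the 3 unsorted lymphomas (horizontal) for the 1891 called genes, with lines at 100%, 50% and 25% of the unsorted difference. The 1601 genes held are grey, and the 290 others, which lie mostly between the 50% and 25% lines, are orange.

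Among genes above the filter level in all 7 arrays and held in the sorted array, the highest rises were in genes of several kinds. Tgm2, which encodes the protein-crosslinking enzyme transglutaminase 2, read 6.93, 6.98 and 7.13 in the DP thymocytes, 13.72, 13.46 and 11.53 in the unsorted lymphomas and 11.39 in the sorted lymphoma. Its rise of 5.51 ± 0.62 (45.6-fold, adjusted p = 0.00182) was seen in 3 of its 4 other probe sets too. Prnp, the prion protein gene, read 8.60, 8.88 and 8.79 in the DP thymocytes, 14.43, 13.77 and 12.95 in the unsorted lymphomas and 14.63 in the sorted lymphoma. All 4 lymphomas lay at least 4.07 above the highest DP array, and the rise was 5.19 ± 0.39 (adjusted p = 3.53e-04). Epas1, which encodes the hypoxia-inducible factor HIF-2 alpha, read 7.05, 6.83 and 7.09 in the DP thymocytes, 12.14, 12.12 and 10.59 in the unsorted lymphomas and 11.65 in the sorted lymphoma. It rose by 4.63 ± 0.38 (adjusted p = 4.66e-04), although another probe set moved by only 0.58, also called.

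Gpr83, an orphan G protein-coupled receptor, read 7.05, 7.14 and 7.02 in the DP thymocytes, 12.33, 12.17 and 11.60 in the unsorted lymphomas and 11.50 in the sorted lymphoma. The lymphomas lay within 0.83 of each other, the groups did not overlap, and the rise was 4.83 ± 0.23 (adjusted p = 4.47e-05). Pde8a, a phosphodiesterase that breaks down cyclic AMP, rose by 4.53 ± 0.28, and Sh3bp5, which encodes a binding partner of the kinase BTK, by 4.84 ± 0.50 (adjusted p = 1.38e-04 and 0.00129). Acpp, an acid phosphatase that releases adenosine from AMP at the cell surface, was highest in the sorted lymphoma (6.52 above DP thymocytes against 4.21 in the unsorted). Its other probe set, at 1.94, was not called. Kbtbd11, a kelch-domain gene, rose by 4.68 ± 0.38, the alpha-E integrin gene Itgae by 4.73 ± 0.57 and Ctss by 4.73 ± 0.59. Ctss, also a macrophage marker, kept 3.05 in the sorted lymphoma against 5.29 in the unsorted ones. The Notch target Dtx1 (4.92; another probe set at -0.21, not called) and Nlrc5, the activator of MHC class I genes (4.44), complete the 12 highest.

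**Figure D3:**
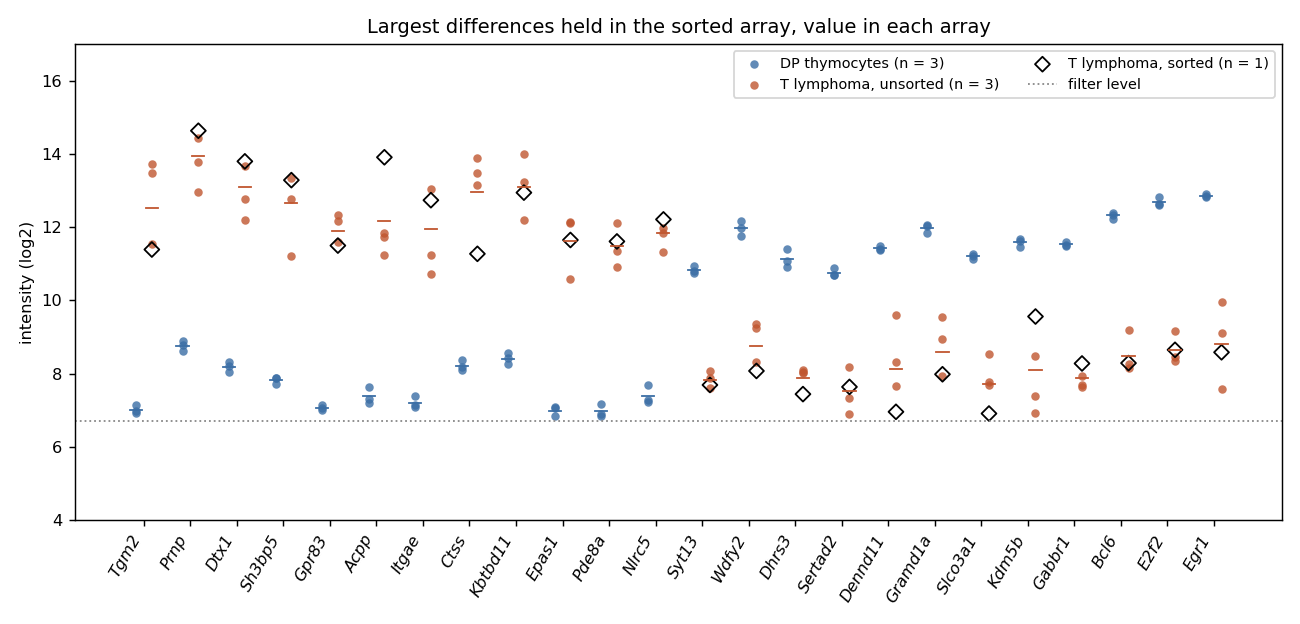
Log2 intensity in each array of the 12 highest and 12 lowest called differences among genes above the filter level in all 7 arrays and held in the sorted lymphoma. Points are arrays, short lines are group means, and the dotted line is the filter level; the groups do not overlap for any of the 24 genes.

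Of the 12 lowest such genes, Egr1 (-4.06), a factor induced by receptor signals, E2f2 (-4.04) and Bcl6 (-3.85), a transcriptional repressor, fell most, and in these the sorted lymphoma lay within the range of the others. Kdm5b, a demethylase of histone H3 lysine 4, read 11.69, 11.62 and 11.46 in the DP thymocytes, 7.40, 8.49 and 6.92 in the unsorted lymphomas and 9.56 in the sorted lymphoma. The sorted lymphoma lay above the 3 unsorted ones and below all DP arrays, and the difference was -3.50 ± 0.59 (adjusted p = 0.00938, and 0.0507 without DP array 3). Gabbr1, a subunit of the GABA-B receptor, read 11.48, 11.60 and 11.52 in the DP thymocytes, 7.92, 7.64 and 7.69 in the unsorted lymphomas and 8.28 in the sorted lymphoma. That difference of -3.65 ± 0.18 had an adjusted p of 4.61e-05. Other members were Slco3a1, an organic anion transporter (-3.49), Gramd1a, a cholesterol transfer protein (-3.37), and Dhrs3, a retinal reductase (-3.24). Sertad2 (-3.24), Wdfy2 (-3.22), Syt13 (-3.02) and Dennd11 (-3.29) close the 12. Dennd11 lost its call without DP array 2 (adjusted p = 0.0515).

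Pathways were then read through 29 lists of 959 genes, of which 887 had a probe set. Each list is described by its called members, to be read against the 7.87% of all genes that rose and the 9.38% that fell. The lists with the highest shares of genes higher were the purine ectoenzymes and receptors and the nucleic acid sensors, at 33.3% each, the SLAM receptors at 28.6%, which is 2 of 7 genes, and the unfolded protein response at 27.3%. The highest shares of genes lower were in the GIMAP GTPases (4 of 8 genes), calcium entry (28.6%), the SLAM receptors (28.6% again) and the WNT list (26.9%). All lists had been assembled with earlier results of these data known, so that these shares describe them and test nothing.

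**Figure D4:**
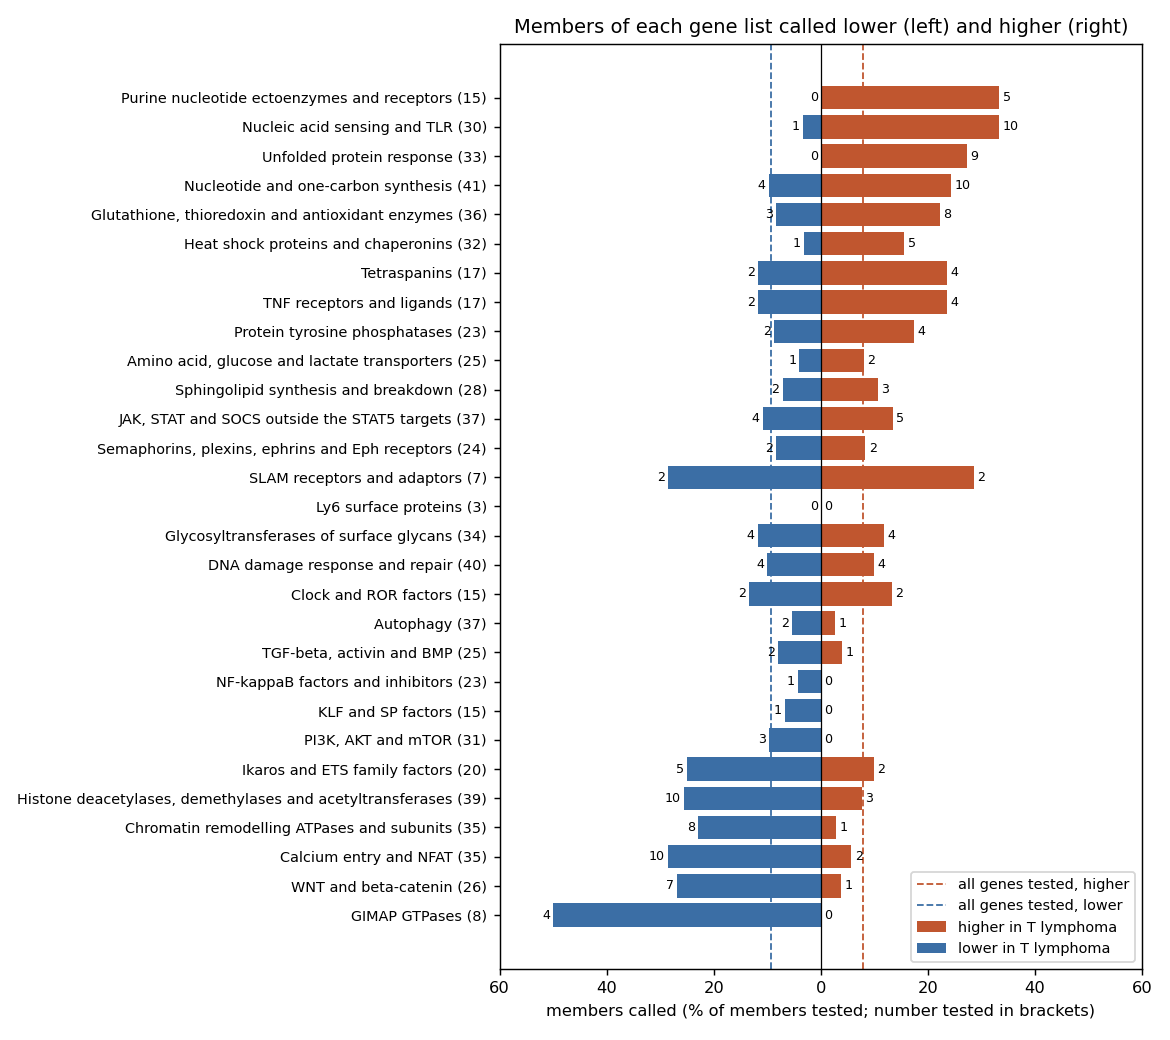
Percent of the tested members of each of 29 gene lists called lower (bars to the left) or higher (bars to the right) in T lymphoma, with the number called at each bar's end and the number tested in brackets. Dashed lines mark the 9.38% and 7.87% of all genes tested; the GIMAP bar rests on 8 genes.

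Innate sensors of microbial products and nucleic acids had more genes higher than lower. Of 30 genes tested, 10 rose, 9 of them held in the sorted lymphoma, and 1 fell, with a median difference of 1.26. That median was 1.24 in the unsorted lymphomas and 0.67 in the sorted one, where the macrophage sum was lower too; its part in the difference was not tested. Tlr1, a receptor for bacterial lipopeptides that pairs with Tlr2, read 5.18, 5.17 and 5.42 in the DP thymocytes, 9.21, 9.05 and 8.68 in the unsorted lymphomas and 10.11 in the sorted lymphoma. The DP arrays lay under the filter level, so the size of the rise (4.01 ± 0.32, adjusted p = 4.40e-04) is uncertain, and the sorted lymphoma was the highest of all. Tlr2 read 6.52, 6.24 and 6.22 in the DP thymocytes, 9.40, 8.22 and 8.72 in the unsorted lymphomas and 8.67 in the sorted lymphoma, also from below the filter level, and rose by 2.43 ± 0.27 (adjusted p = 0.00177).

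Sting1, the adaptor that relays cytosolic DNA sensing, read 7.76, 7.83 and 7.59 in the DP thymocytes, 11.52, 10.71 and 11.12 in the unsorted lymphomas and 10.95 in the sorted lymphoma. Its rise of 3.35 ± 0.20 was 10.2-fold (adjusted p = 1.32e-04), and a second probe set gave 2.62, also called. Irf1, an interferon-induced transcription factor, read 11.04, 11.12 and 11.16 in the DP thymocytes, 13.31, 13.24 and 12.78 in the unsorted lymphomas and 13.39 in the sorted lymphoma. The lymphomas were close together and at least 1.62 above the highest DP array, and the rise was 2.07 ± 0.17 (adjusted p = 4.78e-04). The other members that rose were Zbp1, Ifih1, Tlr6, Tlr7, Myd88 and Irak2, by 0.57 to 2.02, and Irf3 fell by 0.80. In the DP thymocytes Irak2 lay under the filter level. Tlr7 was the member that was not held (0.59 in the sorted lymphoma against 1.65). Tlr3 and Tlr4 were not called, at 2.43 and 2.57 (adjusted p = 0.0861 and 0.0809), and stood 0.00 and 0.32 above the DP thymocytes in the sorted lymphoma. In the fits without 1 array, 5 to 17 members of the list rose. Ifih1, Tlr6, Tlr7, Myd88, Irak2 and Irf3 lost their call without a DP array (adjusted p up to 0.156, also without unsorted lymphoma 1 for Ifih1 and Irak2, or 1 or 2 for Tlr7, Myd88 and Irf3).

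Of 37 tested cytokine receptors, JAK kinases, STAT factors and SOCS inhibitors, leaving out the targets of STAT5, 5 rose (13.5%) and 4 fell (10.8%). Among all genes tested, 7.87% rose and 9.38% fell. Socs3, an inhibitor of cytokine receptor signalling induced by STAT3, read 9.26, 9.37 and 9.55 in the DP thymocytes, 13.41, 13.24 and 11.66 in the unsorted lymphomas and 13.62 in the sorted lymphoma. The lymphomas lay at least 2.11 above the highest DP array, the rise was 3.59 ± 0.46 (adjusted p = 0.00291), and both other probe sets rose (2.96 and 3.65). Il10ra, the ligand-binding chain of the interleukin-10 receptor, read 6.15, 6.13 and 5.95 in the DP thymocytes, 9.61, 9.07 and 8.65 in the unsorted lymphomas and 9.66 in the sorted lymphoma. It rose by 3.17 ± 0.26 from below the filter level (adjusted p = 4.78e-04), and its partner chain Il10rb rose by 1.65 ± 0.27.

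Il18r1, a receptor chain for interleukin-18, read 5.13, 5.52 and 5.51 in the DP thymocytes, 9.24, 7.33 and 8.005 in the unsorted lymphomas and 7.17 in the sorted lymphoma, a rise of 2.55 ± 0.48 from below the filter level. Il4ra, the receptor chain for interleukins 4 and 13, went the other way and read 10.39, 10.40 and 10.20 in the DP thymocytes, 8.47, 7.91 and 7.04 in the unsorted lymphomas and 8.64 in the sorted lymphoma. Its difference of -2.32 ± 0.37 (adjusted p = 0.00753) was shared by 1 of 2 other probe sets, the other lying at -0.11. Ifngr1, a receptor chain for interferon gamma, rose by 0.86, and Il21r, Jak2 and Pias1 fell by 1.32, 0.61 and 0.65. The 3 other Pias1 probe sets, from -0.69 to 0.16, were not called. Il21r alone of the last 4 was not held in the sorted lymphoma. Stat5b was not called (-1.26 ± 0.45, adjusted p = 0.0963). On leaving out 1 array, calls were lost by Il18r1 without any DP array (adjusted p up to 0.0721), and by Ifngr1, Il21r, Jak2 and Pias1 without a DP array (adjusted p up to 0.179, also without unsorted lymphoma 1 for Pias1, or 1, 2 or 3 for Jak2, or 2 or 3 for Il21r).

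The promoters of several of these genes hold a STAT-type palindrome, TTCNNNGAA, and 4 windows are shown because the genes beside them moved in opposite directions: Socs3 and Irf1 rose, Bcl6 and Gimap6 fell. Sequences are RefSeq promoters of GRCm38.p6, written 5′ to 3′ on the gene's strand, with the motif in capitals.
Socs3, chr11:117969462-117969570, minus strand: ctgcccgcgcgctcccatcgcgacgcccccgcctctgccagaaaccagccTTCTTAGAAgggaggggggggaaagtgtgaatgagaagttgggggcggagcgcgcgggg
Irf1, chr11:53769874-53769982, plus strand: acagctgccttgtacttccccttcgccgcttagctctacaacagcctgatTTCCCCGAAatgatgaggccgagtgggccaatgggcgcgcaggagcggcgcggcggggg
Bcl6, chr16:23988912-23989020, minus strand: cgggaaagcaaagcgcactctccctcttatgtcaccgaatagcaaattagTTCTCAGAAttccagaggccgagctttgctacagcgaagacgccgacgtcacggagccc
Gimap6, chr6:48708420-48708494, minus strand: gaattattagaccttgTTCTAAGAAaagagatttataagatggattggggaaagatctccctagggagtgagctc
The motif starts 154 bases before the start of Socs3, 90 before Irf1, 118 before Bcl6 and 234 before Gimap6; Irf1 and Bcl6 have 2 listed promoters each and 1 is shown. In the 250 bases before the start, on either strand, TTCNNNGAA was present in 7.02% of all 32851 RefSeq promoters, 5.93% of those of the 8906 tested genes that matched, 7.51% of those of genes higher and 5.31% of those of genes lower. GAAANNGAA, an interferon-type motif, was present in 7.13%, 5.99%, 9.30% and 4.50%, TGGGAA in 21.6%, 20.2%, 21.2% and 17.8%, and CACGTG in 6.02%, 8.38%, 8.07% and 7.10%. A match is a description of the letters and no site of binding.

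Death receptors and co-stimulatory ligands of the TNF family, of which 17 were tested, gave 4 genes higher and 2 lower. Tnfsf11, which encodes the ligand RANKL, read 6.61, 6.38 and 6.33 in the DP thymocytes, 11.20, 9.30 and 8.95 in the unsorted lymphomas and 10.33 in the sorted lymphoma. It rose by 3.51 ± 0.52 (adjusted p = 0.00551) from below the filter level, while another probe set stood at 0.74 without a call. Fas, the death receptor, read 11.24, 10.87 and 10.64 in the DP thymocytes, 9.38, 9.44 and 8.65 in the unsorted lymphomas and 9.63 in the sorted lymphoma. Every lymphoma lay below every DP array, and the difference was -1.64 ± 0.27 (adjusted p = 0.00778). Tnfrsf1b and Tnfrsf18, receptors for TNF and GITR ligand, rose by 1.63 ± 0.43 and 1.15 ± 0.27 and were higher in the sorted lymphoma (2.61 and 1.70) than in the mean of the others, although another Tnfrsf1b probe set stood at 0.05 without a call. Tnfsf10 rose by 1.01 and Cd27 fell by 1.14 without being held. The calls not kept in every fit without 1 array were those of Tnfrsf1b without any DP array or unsorted lymphoma 1 or 2 (adjusted p up to 0.146), and Tnfrsf18 without any DP array or unsorted lymphoma 1 (adjusted p up to 0.12), and those of Tnfsf10 and Cd27 without a DP array (adjusted p up to 0.173, also without unsorted lymphoma 1 or 2 for Tnfsf10, or 1, 2 or 3 for Cd27). Among NF-kappaB factors and inhibitors 1 of 23 genes fell, the adaptor Traf2 (-0.97 ± 0.21; lost without any DP array, adjusted p up to 0.108), and 0 rose, with a median of -0.04 and 0 to 2 genes higher in the fits without 1 array.

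Of 15 genes tested in the list of purine nucleotide ectoenzymes and receptors, 5 rose and 0 fell. The list's median difference was 1.13 in the unsorted lymphomas, where macrophage and stroma markers were high, and 0.07 in the sorted one. The part of those cells in this difference was not tested. Bst1, an ADP-ribosyl cyclase, read 5.31, 5.63 and 5.20 in the DP thymocytes, 12.38, 11.35 and 10.34 in the unsorted lymphomas and 11.31 in the sorted lymphoma. The DP arrays lay under the filter level and every lymphoma at least 4.70 above them, a rise of 5.97 ± 0.43 (adjusted p = 2.95e-04) with a second probe set at 5.07. Dpp4, also counted in the list, encodes a surface peptidase and no purine enzyme. It read 10.99, 10.92 and 10.76 in the DP thymocytes, 12.88, 12.64 and 12.62 in the unsorted lymphomas and 13.16 in the sorted lymphoma. All 3 other probe sets rose with it (1.84 to 2.31), and its rise was 1.93 ± 0.17 (adjusted p = 6.27e-04). The ATP-gated channels P2rx7 (2.22 ± 0.58) and P2rx4 (1.63 ± 0.39) rose as well, the latter without being held and with 2 other probe sets at 0.23 and 0.56 that were not called. The DP arrays of P2rx7 lay just under the filter level. The fifth member was Entpd5 (0.48; 0 of its 5 other probe sets called, from -0.15 to 0.56). In the fits without 1 array, calls were lost by P2rx7 without any DP array or unsorted lymphoma 1 or 2 (adjusted p up to 0.135), and P2rx4 without any DP array or unsorted lymphoma 2 or 3 (adjusted p up to 0.12), and by Entpd5 without a DP array (adjusted p up to 0.154, also without unsorted lymphoma 1 or 2).

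Tetraspanins, which organise receptors in the membrane, had 4 of 17 members higher and 2 lower. Their median difference was 1.12 in the unsorted lymphomas and 0.31 in the sorted one. Cd82 read 9.09, 9.16 and 8.96 in the DP thymocytes, 12.44, 12.78 and 11.15 in the unsorted lymphomas and 12.60 in the sorted lymphoma. The lymphomas lay at least 1.99 above the highest DP array, and the rise was 3.17 ± 0.38 (adjusted p = 0.00234), although another probe set stood at -0.09. Tspan5 (1.86) and Tspan14 (1.27) rose and were held, Cd151 (1.09) rose without being held, and Cd37 and Cd81 fell by 0.85 and 0.78. Of the 4 other Cd151 probe sets 1 was called, and the lowest stood at -0.18, so that the direction turned with the probe set chosen. The other Tspan5 probe set was at 0.65 without a call. Leaving out arrays ended the calls of Tspan5 and Tspan14 without any DP array or unsorted lymphoma 1 or 2 (adjusted p up to 0.123), and Cd151 without any DP array or unsorted lymphoma 1, 2 or 3 (adjusted p up to 0.163), and those of Cd37 and Cd81 without a DP array (adjusted p up to 0.175, also without unsorted lymphoma 2 or 3 for Cd81). In the SLAM family the receptors Slamf6 (1.05 ± 0.27) and Cd48 (0.53 ± 0.15) rose, and the adaptor Sh2d1a (-1.25 ± 0.25) and the receptor Cd84 (-0.90 ± 0.24) fell. The 2 other Slamf6 probe sets (0.13 and 0.63) and the other Cd84 probe set (-1.54) were not called. Cd84 was not held, and all 4 calls were lost on leaving out 1 array: Slamf6 without any DP array or unsorted lymphoma 1 (adjusted p up to 0.151), Cd48 without any DP array or unsorted lymphoma 1 or 3 (adjusted p up to 0.173), Sh2d1a without any DP array (adjusted p up to 0.0815), and Cd84 without any DP array or unsorted lymphoma 1, 2 or 3 (adjusted p up to 0.163).

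Among guidance receptors, of which 24 were tested, Plxnd1, a semaphorin receptor that guides migrating thymocytes, read 11.99, 12.05 and 12.05 in the DP thymocytes, 8.67, 9.86 and 7.85 in the unsorted lymphomas and 9.87 in the sorted lymphoma. It fell by 2.97 ± 0.50 (adjusted p = 0.00886), and all lymphomas were at least 2.12 below the DP arrays. Nrp1, a co-receptor for semaphorins, read 9.04, 8.81 and 9.49 in the DP thymocytes, 11.27, 11.45 and 11.98 in the unsorted lymphomas and 10.74 in the sorted lymphoma. Its 3 other probe sets rose with it (1.74 to 2.36), and the rise was 2.24 ± 0.31 (adjusted p = 0.0038). Sema4a rose by 2.000 ± 0.44 and Plxnb1 fell by 0.57, with calls lost by Sema4a without any DP array or unsorted lymphoma 2 (adjusted p up to 0.102), and Plxnb1 without any DP array or unsorted lymphoma 1 or 2 (adjusted p up to 0.119). Ephb6 was at -3.05 without a call (adjusted p = 0.0861), and read -0.91 in the sorted lymphoma against -3.76. Of 3 Ly6 surface proteins tested, 0 were called; Ly6k, the furthest, stood at 1.76 ± 1.53, adjusted p = 0.442, and reached 12.83 in lymphoma 2 and 12.53 in the sorted lymphoma against 7.24 and 7.52 in the others.

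Protein tyrosine phosphatases gave 4 of 23 genes higher and 2 lower. Ptpn13 encodes a large cytosolic phosphatase. It read 5.29, 5.41 and 5.63 in the DP thymocytes, 10.39, 9.74 and 10.23 in the unsorted lymphomas and 10.08 in the sorted lymphoma. The DP arrays were under the filter level, and the rise of 4.66 ± 0.19 (25.3-fold, adjusted p = 1.83e-05) was nearly the same in the sorted and the unsorted tumours, while another probe set gave 0.49, also called. Ptpn14, which restrains the YAP coactivator, read 9.69, 9.56 and 9.70 in the DP thymocytes, 11.71, 12.08 and 11.83 in the unsorted lymphomas and 11.98 in the sorted lymphoma. It rose by 2.25 ± 0.14 (adjusted p = 1.31e-04) with little spread among the lymphomas, and 1 of its 2 other probe sets was called too. Ptpn9 rose by 1.51 ± 0.22 and Ptpn2 by 0.74. Ptpn6, the phosphatase SHP-1 that curbs antigen receptor signals, fell by 0.78 ± 0.22 but was not held (-0.30 in the sorted lymphoma), and Ptprcap fell by 0.68. Ptpn6 lost its call without any DP array or unsorted lymphoma, and Ptpn2 and Ptprcap without a DP array (adjusted p up to 0.179).

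Calcium entry and NFAT genes had 10 of 35 members lower and 2 higher, 8 and 2 of them held. The list's median difference was -0.40 in the unsorted lymphomas but 0.18 in the sorted one, so the list as a whole was not lower there. Kcna3, the potassium channel that sustains calcium influx in T cells, read 8.79, 8.93 and 9.16 in the DP thymocytes, 6.61, 7.32 and 7.50 in the unsorted lymphomas and 7.42 in the sorted lymphoma. It fell by 1.75 ± 0.24 (adjusted p = 0.00377), and every lymphoma was at least 1.30 below the lowest DP array. S100a10, a small calcium-binding-family protein that pairs with annexin A2, fell by 2.71 ± 0.55, most in the sorted lymphoma (-4.16), with both other probe sets. Itpkb, a kinase of inositol trisphosphate needed by DP thymocytes, fell by 2.10 ± 0.52 but read -0.77 in the sorted lymphoma against -2.54 in the others, and its other probe set (-1.64) was not called. The others that fell were Trpv2, Nfatc3, Camk4, Atp2a3, Nfat5, Ppp3r1 and Ppp3cb, by 0.44 to 1.47. Nfatc2 rose by 2.18 ± 0.41, although its 2 other probe sets lay at -0.17 and 0.16 without a call, and Orai3 rose by 1.51. The calls lost on leaving out 1 array were those of S100a10 and Nfatc2 without any DP array (adjusted p up to 0.0787), and Itpkb without any DP array or unsorted lymphoma 1, 2 or 3 (adjusted p up to 0.131); Camk4, Nfat5, Ppp3r1 and Ppp3cb lost theirs without a DP array (adjusted p up to 0.192, also without unsorted lymphoma 1 or 2 for Camk4, or 1, 2 or 3 for Ppp3r1 and Ppp3cb).

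Of 31 genes of the PI3K, AKT and mTOR pathway, 0 rose and 3 fell, namely Pik3cg (-1.16 ± 0.22), Rictor (-0.89 ± 0.22) and Pik3r2 (-0.62 ± 0.17), of which Rictor was held. The share lower was 9.68%, against 9.38% of all genes tested. The other Pik3cg probe set (-0.90) and 2 of 3 other Rictor probe sets were not called. Without 1 array the genes higher numbered 0 to 2 and the genes lower 0 to 8, and calls were lost by Pik3cg without any DP array (adjusted p up to 0.0741), Rictor without any DP array or unsorted lymphoma 1 (adjusted p up to 0.142), and Pik3r2 without any DP array or unsorted lymphoma 1, 2 or 3 (adjusted p up to 0.176). In the TGF-beta list Acvr1b, the activin receptor ALK4, read 10.76, 10.72 and 10.63 in the DP thymocytes, 9.08, 8.97 and 8.47 in the unsorted lymphomas and 9.58 in the sorted lymphoma. It fell by 1.68 ± 0.25 (adjusted p = 0.00543), while Inhba fell by 0.52 and Id2, an inhibitor of E proteins, rose by 3.21 ± 0.64. Id2 kept 1.56 in the sorted lymphoma against 3.76 in the others. Both of these calls depended on single arrays, being lost by Inhba without any DP array or unsorted lymphoma 1 or 2 (adjusted p up to 0.154), and Id2 without any DP array (adjusted p up to 0.0767). Tgfb3 and Smad7 were not called, at 2.39 and 1.73 (adjusted p = 0.0632 and 0.108), and stood at 4.17 and 3.66 in the sorted lymphoma.

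In the WNT list 7 of 26 genes fell and 1 rose, and 6 of the 7 were held. The median difference of the list was -0.49 in the unsorted lymphomas and -0.06 in the sorted one. Bcl9, a coactivator of beta-catenin, read 8.04, 8.43 and 7.87 in the DP thymocytes, 6.87, 6.85 and 6.51 in the unsorted lymphomas and 6.89 in the sorted lymphoma. It fell by 1.34 ± 0.18 (adjusted p = 0.00356) to about the filter level. Tle2, a co-repressor of TCF factors, fell by 1.30 ± 0.18, and Ctnnbip1, an inhibitor of beta-catenin, by 1.06 ± 0.14, so that both activators and inhibitors of the pathway were among the genes that fell. Fzd5, a WNT receptor, read 7.04, 7.20 and 7.72 in the DP thymocytes, 9.17, 9.52 and 8.84 in the unsorted lymphomas and 9.11 in the sorted lymphoma, a rise of 1.84 ± 0.22 (adjusted p = 0.00245). The other members that fell were Gsk3b (1 of 5 other probe sets called, from -0.98 to 0.35), Tle1, Tle3 and Apc, by 0.47 to 0.76, each losing its call without a DP array (adjusted p up to 0.177, also without unsorted lymphoma 1 or 2 for Gsk3b and Tle3, or 1, 2 or 3 for Apc, or 2 or 3 for Tle1).

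**Figure D5:**
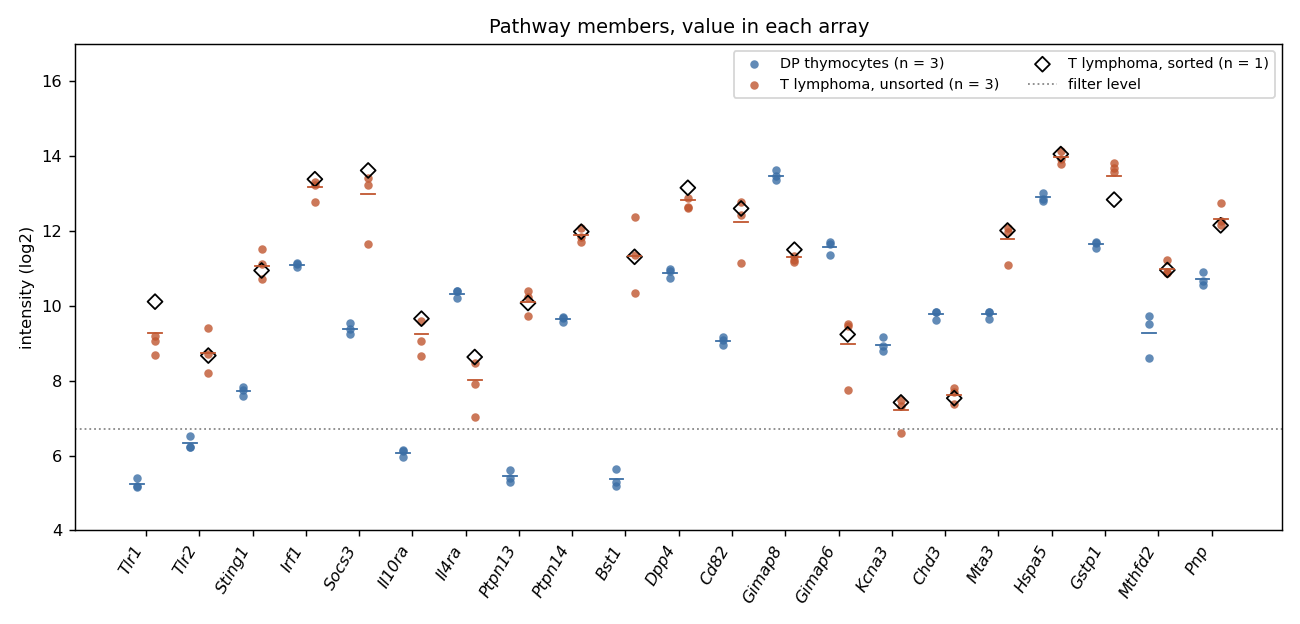
Log2 intensity in each array of 21 pathway members described in the text, with group means as short lines and the filter level dotted. Tlr1, Tlr2, Il10ra, Ptpn13 and Bst1 start below the filter level in the DP thymocytes, and the groups do not overlap for any gene shown.

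The GIMAP GTPases, regulators of lymphocyte survival encoded side by side on chromosome 6, gave 4 of 8 members lower and 0 higher, with a median of -1.07. Gimap8 read 13.63, 13.35 and 13.46 in the DP thymocytes, 11.32, 11.18 and 11.22 in the unsorted lymphomas and 11.50 in the sorted lymphoma. The 4 lymphomas lay within 0.32 of each other and all below the DP thymocytes, a difference of -2.17 ± 0.14 (adjusted p = 1.58e-04). Gimap6, whose promoter window holds the STAT-type motif, read 11.65, 11.72 and 11.37 in the DP thymocytes, 9.46, 7.75 and 9.51 in the unsorted lymphomas and 9.24 in the sorted lymphoma. It fell by 2.59 ± 0.43 (adjusted p = 0.0088), by 3.49 in its other probe set, and was lowest in lymphoma 2. Gimap9 (-0.84 ± 0.14) and Gimap1 (-1.31 ± 0.36) fell too, Gimap1 without being held, and their calls were lost by Gimap9 without DP array 1 or 2 (adjusted p up to 0.0586), and Gimap1 without any DP array or unsorted lymphoma 1 or 2 (adjusted p up to 0.157). The neighbours did not move as 1 unit. Gimap4 and Gimap3 stood at 1.13 and 0.87, Gimap5 at -0.42 and Gimap7 at -1.40, all 4 without a call (adjusted p = 0.0939, 0.239, 0.37 and 0.104).

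Lymphoid transcription factors of the Ikaros and ETS families had 5 of 20 genes lower and 2 higher. Their median difference was -0.39 in the unsorted lymphomas and -0.08 in the sorted one. Ets2 read 14.36, 14.44 and 14.46 in the DP thymocytes, 10.76, 12.44 and 11.32 in the unsorted lymphomas and 11.65 in the sorted lymphoma. It fell by 2.88 ± 0.36 (adjusted p = 0.0028), and by 3.27 in its other probe set. Ikzf2, which encodes Helios, read 12.76, 12.76 and 12.96 in the DP thymocytes, 10.23, 10.17 and 10.59 in the unsorted lymphomas and 11.53 in the sorted lymphoma, a difference of -2.19 ± 0.33 (adjusted p = 0.00592) with the sorted lymphoma nearest to the DP arrays. Its relative Ikzf4, which encodes Eos, went up by 2.06 ± 0.43, most in the sorted lymphoma (3.22), and the ETS repressor Etv6 rose by 1.77 ± 0.25 (0.88 and not called in its other probe set). Elf1, Ikzf3 and Ikzf5 fell by 0.76 to 1.07, Elf1 without being held. Of these calls, some were lost without 1 array, by Ikzf4 without any DP array (adjusted p up to 0.0855), and by Elf1, Ikzf3 and Ikzf5 without a DP array (adjusted p up to 0.111, also without unsorted lymphoma 1 or 2 for Ikzf5). Of 15 KLF and SP factors 1 fell, Sp1 (-0.84 ± 0.15; adjusted p up to 0.0675 without a DP array; 2 other probe sets, at -0.61 and -0.48, not called). Klf2 stood at 2.53 ± 1.20, adjusted p = 0.17, with 5.78 in the sorted lymphoma and 1.45 in the mean of the others.

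Chromatin regulators were called lower more often than higher. Median differences in the unsorted lymphomas were -0.64 for remodeller subunits and -0.62 for histone enzymes. In the sorted lymphoma they were -0.20 and -0.19. Of 35 subunits of ATP-dependent remodellers 8 fell and 1 rose, and 5 of the 8 were held; of 39 histone deacetylases, demethylases and acetyltransferases 10 fell and 3 rose, 7 and 3 of them held. Chd3, an ATPase of the NuRD co-repressor, read 9.63, 9.85 and 9.83 in the DP thymocytes, 7.82, 7.70 and 7.38 in the unsorted lymphomas and 7.54 in the sorted lymphoma. It fell by 2.16 ± 0.15 (adjusted p = 2.31e-04), and the 4 lymphomas lay within 0.44 of each other. Mta3, another NuRD subunit, read 9.83, 9.85 and 9.64 in the DP thymocytes, 11.98, 11.10 and 12.08 in the unsorted lymphomas and 12.02 in the sorted lymphoma, a rise of 2.02 ± 0.26 (adjusted p = 0.0029) that 1 of 2 other probe sets shared, while its relative Mta2 fell by 0.88 without being held. Arid2 fell by 1.03 with both other probe sets, and kept 45.5% of the unsorted difference in the sorted lymphoma. The remainder that fell were Chd6, Pbrm1, Mbd3, Smarcc2 and Smarcd2, by 0.50 to 0.88, each losing its call without a DP array (adjusted p up to 0.167, also without unsorted lymphoma 1, 2 or 3 for Mbd3 and Smarcd2, or 2 or 3 for Chd6). So did Mta2 without any DP array or unsorted lymphoma 1 or 2 (adjusted p up to 0.142), and Arid2 without any DP array (adjusted p up to 0.0798).

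The class IIa deacetylases diverged. Hdac5 read 10.18, 10.20 and 10.50 in the DP thymocytes, 7.62, 7.43 and 7.41 in the unsorted lymphomas and 9.09 in the sorted lymphoma, a difference of -2.41 ± 0.42 in which the sorted lymphoma stood apart. Hdac7 fell by 1.67 and was held. Hdac4 read 7.62, 7.84 and 8.05 in the DP thymocytes, 11.77, 9.95 and 9.55 in the unsorted lymphomas and 10.75 in the sorted lymphoma, a rise of 2.67 ± 0.50 (adjusted p = 0.0138) that its other probe set shared (2.39). Kdm6b, a demethylase of histone H3 lysine 27, fell by 2.53 ± 0.65 but read -1.17 in the sorted lymphoma against -2.98. Hdac10, Kdm3b, Kat6b, Ep300, Kat6a and Hdac1 fell as well, by 0.60 to 1.61, and Hdac6 and Kat2a rose by 1.26 and 0.76. Single arrays decided the calls lost by Hdac5 without DP array 3 (adjusted p up to 0.0547), Hdac4 without any DP array (adjusted p up to 0.0693), and Kdm6b without any DP array or unsorted lymphoma 1 or 2 (adjusted p up to 0.139), and by Kdm3b, Kat6b, Ep300, Kat6a, Hdac1, Hdac6 and Kat2a without a DP array (adjusted p up to 0.172, also without unsorted lymphoma 1 or 2 for Ep300 and Kat2a, or 2 or 3 for Kat6b). In the fits without 1 array, 1 to 18 remodeller subunits and 3 to 20 histone enzymes fell.

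In the list of the unfolded protein response, which adjusts protein folding in the endoplasmic reticulum, 9 of 33 genes rose, all held, and 0 fell, with a median of 0.33. The other 24 were not called, among them Atf6b (-0.84, adjusted p = 0.124) and Syvn1 (-0.62, adjusted p = 0.2). Hspa5, the chaperone BiP, read 12.81, 13.03 and 12.86 in the DP thymocytes, 14.14, 13.79 and 13.92 in the unsorted lymphomas and 14.06 in the sorted lymphoma. It rose by 1.08 ± 0.14 (adjusted p = 0.0029), although 1 of its 2 other probe sets lay at 0.10. The co-chaperone gene Sdf2l1 rose by 1.45 ± 0.23 and the disulfide isomerase gene Pdia6 by 0.92 ± 0.12 (adjusted p = 0.00741 and 0.0038). Trib3, a pseudokinase induced by stress, rose by 1.51 ± 0.35, with lymphoma 2 far below the other 3. Hsp90b1, Pdia3, Pdia4, Manf and Derl3 rose by 0.53 to 0.84. A call was lost by Trib3 without any DP array or unsorted lymphoma 1 or 3 (adjusted p up to 0.115), and by the last 5 genes without a DP array (adjusted p up to 0.181, also without unsorted lymphoma 1 for Manf, or 1, 2 or 3 for Pdia4 and Derl3); without 1 array, 3 to 9 of the list rose.

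Among 32 heat shock proteins and chaperonins 5 rose and 1 fell. The mitochondrial chaperone gene Hspa9 read 10.87, 10.998 and 11.08 in the DP thymocytes, 11.88, 11.79 and 12.16 in the unsorted lymphomas and 11.78 in the sorted lymphoma, a rise of 0.92 ± 0.14 (adjusted p = 0.00655). Hspe1, the mitochondrial co-chaperonin gene, rose by 1.10 ± 0.19 (0.30 and not called in its other probe set), Hspa2 by 1.32 ± 0.23, Bag2 by 0.89 ± 0.18 and Dnajb6 by 0.79, and Dnajb4 fell by 0.71. In Hspa2 and Bag2 the DP arrays lay under the filter level, at most at 5.99 and 6.55, so the size of these rises is uncertain. Of the 6 calls, those lost without 1 array were Hspe1, Hspa2 and Bag2 without DP array 1 or 2 (adjusted p up to 0.0913), and Dnajb6 and Dnajb4 without a DP array (adjusted p up to 0.082).

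Enzymes of nucleotide and one-carbon synthesis had 10 of 41 members higher and 4 lower. Their median difference was 0.42 in the unsorted lymphomas and 0.10 in the sorted one. Mthfd2, the mitochondrial folate enzyme of proliferating cells, read 8.62, 9.51 and 9.74 in the DP thymocytes, 11.21, 10.90 and 10.88 in the unsorted lymphomas and 10.96 in the sorted lymphoma. It rose by 1.70 ± 0.27 (adjusted p = 0.0074), and the lowest lymphoma lay 1.14 above the highest DP array. Pnp, the purine nucleoside phosphorylase, read 10.56, 10.68 and 10.91 in the DP thymocytes, 12.75, 12.17 and 12.26 in the unsorted lymphomas and 12.15 in the sorted lymphoma, a rise of 1.62 ± 0.19 (adjusted p = 0.00206). The adenosine kinase gene Adk rose by 1.62 ± 0.29. Shmt1, the cytosolic serine hydroxymethyltransferase, rose by 1.72 ± 0.43 without being held (0.64 in the sorted lymphoma against 2.07) and without a call in its 3 other probe sets. The others that rose were Shmt2, Nme2, Uck2, Aprt, Mthfd1l and Atic, by 0.68 to 1.59. The adenosine deaminase gene Ada fell by 1.27, the inosinate dehydrogenase gene Impdh1 by 1.24, the ribonucleotide reductase gene Rrm2 by 1.11 and the deoxycytidine kinase gene Dck by 0.77, Dck without being held. Leave-one-out fits ended the calls of Adk without DP array 1 or 2 (adjusted p up to 0.0591), and Shmt1 without any DP array or unsorted lymphoma 1, 2 or 3 (adjusted p up to 0.144); Mthfd1l, Atic, Ada, Impdh1, Rrm2 and Dck lost theirs without a DP array (adjusted p up to 0.168, also without unsorted lymphoma 1 or 2 for Ada, or 1, 2 or 3 for Atic and Dck, or 2 for Impdh1). Without 1 array, 6 to 16 genes of the list rose and 0 to 4 fell.

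Antioxidant enzymes had 8 of 36 members higher and 3 lower. Their median difference was 0.53 in the unsorted lymphomas and 0.21 in the sorted one. Gstp1, a glutathione transferase, read 11.56, 11.72 and 11.69 in the DP thymocytes, 13.81, 13.59 and 13.69 in the unsorted lymphomas and 12.84 in the sorted lymphoma. It rose by 1.83 ± 0.24 (adjusted p = 0.00341), least in the sorted lymphoma. Mgst3 read 8.18, 8.51 and 8.64 in the DP thymocytes, 7.04, 7.23 and 6.93 in the unsorted lymphomas and 7.16 in the sorted lymphoma and fell by 1.36 ± 0.16 (adjusted p = 0.00196). Gsto1 rose by 1.43 ± 0.38 and Slc7a11, the cystine importer, fell by 1.41 ± 0.31, neither held. Sod2, Mgst2, Gsr, Gpx1, Prdx3 and Sod1 rose by 0.71 to 1.33, and Gsta4 fell by 1.17. The 3 other Sod1 probe sets, from -0.03 to 0.51, were not called. Mgst1 and the metallothionein gene Mt1 were not called, at 4.12 and 3.05 (adjusted p = 0.0861 and 0.105), and stood at 0.03 and 0.04 in the sorted lymphoma. With 1 array fewer, calls were lost by Gsto1 without any DP array or unsorted lymphoma 2 or 3 (adjusted p up to 0.146), and Slc7a11 without any DP array or unsorted lymphoma 1 or 2 (adjusted p up to 0.104), and by Mgst2, Gsr, Gpx1, Prdx3 and Sod1 without a DP array (adjusted p up to 0.159, also without unsorted lymphoma 1 for Mgst2, or 1 or 3 for Sod1, or 2 or 3 for Gpx1).

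Enzymes that build surface glycans had 4 of 34 members higher and 4 lower, all 8 held. That is 11.8% each way, against 7.87% and 9.38% of all genes tested. St6gal1, which caps glycans with sialic acid, read 12.61, 12.57 and 12.54 in the DP thymocytes, 9.20, 9.30 and 10.44 in the unsorted lymphomas and 5.90 in the sorted lymphoma. It fell by 3.86 ± 0.97 (adjusted p = 0.0367), to below the filter level in the sorted lymphoma alone. Galnt10, which starts O-linked glycans, fell by 2.03 ± 0.14 and Mgat5, which branches N-linked ones and raises the activation threshold of T cells, by 2.01 ± 0.16 (adjusted p = 2.47e-04 and 3.99e-04). Mgat5 read 12.52, 12.42 and 12.67 in the DP thymocytes, 10.52, 10.60 and 10.25 in the unsorted lymphomas and 10.76 in the sorted lymphoma, so the lymphomas and the DP thymocytes were each tightly grouped. B4galt5 rose by 1.83 ± 0.43, St3gal3, St6galnac4 and St8sia4 by 1.63, 1.22 and 0.55, and B3gnt2 fell by 1.08. The calls were not kept by St6gal1 and B4galt5 without any DP array or unsorted lymphoma 1 or 2 (adjusted p up to 0.125), and by St3gal3, St6galnac4 and St8sia4 without a DP array (adjusted p up to 0.117). In the sphingolipid list 3 of 28 rose and 2 fell, among them Sgms1, a sphingomyelin synthase (1.86, not held), Sgpl1, the lyase of sphingosine phosphate (0.96), Gba2 (-0.93, not held) and Smpd2 (-0.56), beside Degs1, a ceramide-forming desaturase (0.47). The list's shares were 10.7% higher and 7.14% lower, against the same 7.87% and 9.38%. Other probe sets were not called for Gba2 (-0.03), Degs1 (0.42) and Sgms1 (2 sets, 0.12 and 0.98). The losses without 1 array were Sgms1 without any DP array or unsorted lymphoma 1 (adjusted p up to 0.12), and Sgpl1, Gba2 and Smpd2 without any DP array or unsorted lymphoma 1 or 2 (adjusted p up to 0.14), and Degs1 without a DP array (adjusted p up to 0.163, also without unsorted lymphoma 1 or 2).

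Genes of DNA repair gave 4 of 40 higher and 4 lower. That is 10% each way, near the 7.87% and 9.38% of all genes tested. Apex1, the endonuclease of base excision repair, read 10.03, 10.17 and 10.29 in the DP thymocytes, 11.64, 11.64 and 12.06 in the unsorted lymphomas and 11.29 in the sorted lymphoma. It rose by 1.50 ± 0.19 (adjusted p = 0.00311), as did both other probe sets. Lig4, the ligase that seals V(D)J joints, read 12.74, 12.71 and 12.72 in the DP thymocytes, 10.42, 11.53 and 11.90 in the unsorted lymphomas and 11.24 in the sorted lymphoma, a difference of -1.45 ± 0.33, and Nhej1 and Polm, which also act in end joining, fell by 0.85 and 0.81. Xrcc5, the Ku subunit of the same process, was at 0.51 without a call (adjusted p = 0.137). Rad52 fell by 1.22 without being held, while Nbn (1.20 ± 0.25), Atm (0.87) and Chek2 (0.57) rose. Without 1 array, calls were lost by Lig4 without any DP array (adjusted p up to 0.101), Rad52 without any DP array or unsorted lymphoma 1, 2 or 3 (adjusted p up to 0.17), and Nbn without any DP array or unsorted lymphoma 2 (adjusted p up to 0.099); Nhej1, Polm, Atm and Chek2 lost theirs without a DP array (adjusted p up to 0.176, also without unsorted lymphoma 1 for Nhej1, or 1 or 2 for Polm and Chek2, or 2 for Atm).

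Of 15 clock genes 2 rose and 2 fell, all 4 held. That is 13.3% each way, against 7.87% and 9.38% of all genes tested. Cry1, a repressor of the clock, read 10.33, 10.41 and 10.40 in the DP thymocytes, 8.60, 9.03 and 8.98 in the unsorted lymphomas and 9.20 in the sorted lymphoma, a difference of -1.42 ± 0.16 (adjusted p = 0.00199). The heterodimer partners Clock and Arntl moved apart, Clock rising by 1.26 ± 0.15 and Arntl falling by 1.44 ± 0.25 (adjusted p = 0.00224 and 0.01). Bhlhe40, an activation-induced repressor, rose by 3.68 ± 0.72, and calls were lost by Arntl without DP array 1 or 2 (adjusted p up to 0.0547), and Bhlhe40 without any DP array (adjusted p up to 0.0737). Of 3 other Clock probe sets 1 was called (0.47 to 0.92). The time of day of sampling was not given in the sources used here. Nutrient transporters had 2 of 25 members higher and 1 lower, which is 8% and 4% against the same 7.87% and 9.38%. The large neutral amino acid transporter gene Slc7a5 rose by 1.60 ± 0.32 and Slc16a6 by 0.83 ± 0.19, and Slc16a5 fell by 1.42. These were lost by Slc7a5 and Slc16a5 without any DP array (adjusted p up to 0.106), and Slc16a6 without any DP array or unsorted lymphoma 1 (adjusted p up to 0.123). Autophagy genes were called in 3 of 37 cases, Bnip3 higher (1.18 ± 0.27, not held) and Atg4c and Rubcn lower (-0.64 and -0.55), with calls lost by Bnip3 and Atg4c without any DP array or unsorted lymphoma 1 or 2 (adjusted p up to 0.152), and Rubcn without any DP array (adjusted p up to 0.1). The autophagy shares, 2.70% higher and 5.41% lower, were below those of all genes tested.

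A small set of called changes was nearly missing from the sorted lymphoma, which kept under 25% of the unsorted difference. The set was kept small by the fit itself, which held the sorted lymphoma, so that such genes gained spread and were rarely called. Among the 10 largest, Plek, an abundant protein kinase C substrate of myeloid cells and platelets, read 5.98, 6.07 and 6.12 in the DP thymocytes, 11.06, 9.99 and 10.80 in the unsorted lymphomas and 7.18 in the sorted lymphoma. Ctla2a, a cathepsin inhibitor, read 5.56, 5.34 and 5.19 in the DP thymocytes, 10.76, 9.63 and 9.74 in the unsorted lymphomas and 6.43 in the sorted lymphoma. The sorted lymphoma stood 1.13 and 1.06 above the mean of the DP thymocytes in these genes, whose DP arrays lay under the filter level. The unsorted tumours, in which the differences were 4.56 and 4.68, stood far above it. In those tumours the macrophage and stroma markers were high, and the part of those cells in the difference was not tested. Casp12, Saa3, H2-DMb2, Uxs1 and Pld1 had the same pattern, with 2.42, 1.78, 1.67, 1.63 and 1.40 over all lymphomas and 0.61, 0.48, 0.44, 0.44 and 0.39 in the sorted one. Casp12, Saa3 and Pld1 also rose from below the filter level. Of the genes lower, Mturn read 10.38, 10.33 and 10.35 in the DP thymocytes, 7.22, 7.41 and 7.12 in the unsorted lymphomas and 9.68 in the sorted lymphoma, and Rai1 and Scrib were at -1.50 and -1.30 over all lymphomas and at -0.41 and -0.34 in the sorted one. All 10 calls were lost without any DP array or unsorted lymphoma 1, 2 or 3 (adjusted p up to 0.167).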

How the data were processed

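Per the labels' protocols, Trizol RNA was amplified with a 2-cycle Affymetrix kit and hybridised as biotinylated cRNA. The deposited values are intensities per probe set on a linear scale. Per the submitters' processing notes the authors used RMA (robust multi-array average), with no version given. RMA gives log2 values, so the deposited values may have been turned back, which could not be checked. Background correction and normalization can therefore not be varied here, and array scanner files were not used. Each array's median intensity was 99.5 to 109. The number of arrays limits the precision.

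From these values log2 was taken. Of 45101 probe sets, 64 were controls, 34945 had 1 gene symbol, 932 several and 9160 none; those with several or none were left out. RefSeq matched 34741 by Entrez identifier, and 0 symbols changed. For 18193 genes the probe set of highest average in these 7 arrays was used. A gene was tested if it exceeded log2 6.70 in at least 3 arrays, which left 10961.

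Groups came from the labels. limma 3.58.1 (lmFit, eBayes, two-sided; R 4.3.3) compared 4 T lymphoma with 3 DP thymocyte arrays, with Benjamini-Hochberg adjustment over all genes tested; errors are standard errors. The script was tested on simulated data. Members and lists were chosen with earlier results of these data known. Of the pathway lists 1 is not reported here. The text names the 4 called members of each other list with the largest differences, the 12 highest and 12 lowest differences held in the sorted array with every array above the filter level, and the 10 largest differences of which the sorted array kept under 25%. Where a list's remaining called members are named, all of them are. Alternatives covered the arrays fitted, spread, filter, normalization, offset and choice of probe set.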

Additional observations from a re-analysis of the deposited data

Results flagged for a closer look

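Among the 140 named genes, 8 had 1 lymphoma set far from the other 3 relative to the group's whole range (Dixon's test; chance alone gives about 1 in 20 groups such a flag). Lymphoma 2 was the lone array in Gimap6 (7.75 against 9.24 to 9.51), Mta3 (11.10 against 11.98 to 12.08), Trib3 (7.33 against 8.59 to 8.77) and Bcl6 (9.18 against 8.14 to 8.29). The sorted lymphoma was the lone array in Hdac5 (9.09 against 7.41 to 7.62), Mturn (9.68 against 7.12 to 7.41) and Dhrs3 (7.44 against 8.01 to 8.09). Lymphoma 3 was lowest in Bcl9 (6.51 against 6.85 to 6.89).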

How the results depend on the processing

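Counts of called genes moved with the arrays and the spread used. With all 12 arrays in the fit, 451 genes rose and 422 fell. With the unsorted lymphomas alone the counts were 1685 and 2021, and with the sorted lymphoma alone, whose spread is assumed to be that of the DP arrays, 2176 and 1718. Weights for each group gave 1570 and 1582. Leaving out 1 array gave 333 to 1685 genes higher and 316 to 2021 lower. Replicate numbers did not pair the samples (correlations of deviations 0.018, 2.47e-04 and -0.019); a replicate block, in which the sorted lymphoma has no partner, gave 1441 higher and 1498 lower. The other settings (filter, trend, normalization, offset, probe sets) kept both counts within 1.5 times. The share held among genes higher was 72.3% when 75% of the difference had to be kept, 99.1% when 25% had to, 86.5% after quantile normalization and 93.8% to 100% without 1 array. Among genes lower it was 51.6%, 99.3%, 86.7% and 89.0% to 99.4%, and 73.9% with the stricter filter. Of the named called genes, 71 lost their call without DP array 1 and 0 with weights for each group. Cd151 turned to -0.18 (adjusted p = 0.373) when _x_at and _s_at probe sets were left out, where another probe set stands for it. The cause of these shifts was not tested, beyond fewer arrays being fitted.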

Other observations

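Several genes that did not pass the test were far from DP thymocytes in the sorted lymphoma and closer in the others. The KLF factor Klf2 was 5.78 above there against 1.45 in the mean of the unsorted lymphomas, Smad7 3.66 against 1.09, and Phlpp1 3.10 against 0.95. Inpp4b was at -3.44 against -0.97, Ptpn12 at -3.48 against -0.95 and Gabarapl1 at -3.45 against -0.08. These are values of 1 array without a test.

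Over the 5480 genes of the higher mean level, the median difference from DP thymocytes was -0.09, -0.22 and -0.13 in lymphomas 1, 2 and 3 and 0.02 in the sorted lymphoma. In lymphoma 1 the 150 such genes on chromosome 18 had a median of -0.45, the furthest of any chromosome from that array's median, against -0.27, -0.05 and 0.03 in the others. On chromosome 12 the 212 genes had the highest median of all chromosomes in each of the unsorted lymphomas 1 (0.02), 2 (-0.10) and 3 (0.04) and in the sorted lymphoma (0.18).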
